A study of Mus musculus with 48 samples.

Results

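The genes described here are the hepcidin gene Hamp, its mouse paralog Hamp2 and 8 genes of iron sensing, transport and storage: Tfrc, Tfr2, Trf, Slc40a1, Fth1, Ftl1, Bmp6 and Id1. They were chosen by name and found by the Ensembl identifier of each symbol, and they are 10 of 55416 genes with counts in 48 mouse livers. The livers came from a knock-in study (DN), in which mice carried the p.W441R dominant negative change in LXRα, and from a knockout study (KO) of LXRα, a nuclear receptor for oxysterols encoded by Nr1h3. Each study had 8 wild-type (WT), 8 heterozygous (HET) and 8 homozygous (HOM) mice, and all 6 groups received a western diet for 8 weeks from 8 weeks of age and were killed at 16 weeks. The strain is given as C57Bl/6J. The knock-in allele was made by genome editing of embryos and the knockout is a null line, so both are present in every cell type and not in hepatocytes alone, and the knockout colony was kept at a different site. Study, site and line cannot be told apart in any comparison between DN and KO mice.

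Hepcidin is the peptide hormone by which the liver limits the entry of iron into plasma. It binds ferroportin, the iron exporter encoded by Slc40a1, and causes its breakdown. Hepatocytes set hepcidin transcription mainly through BMP signalling: BMP6, made largely by liver endothelial cells, acts through hemojuvelin and SMAD proteins, and Id1 is transcribed by the same signal. HFE and transferrin receptor 2 (Tfr2) add information on circulating transferrin (Trf), and interleukin-6 raises hepcidin through STAT3 in inflammation. Transferrin receptor 1 (Tfrc), the ferritin subunits (Fth1 and Ftl1) and Slc40a1 are in addition controlled after transcription by iron regulatory proteins.

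Between 5332897 and 16961379 reads per liver fell on genes, with 2 livers under 10000000 (KO:HET animal 3 and KO:HOM animal 17). Nr1h3 had 27 ± 1.99 counts per 1000000 reads (CPM) in KO:HOM (SD, n = 8) against 93.6 ± 8.82 CPM in KO:WT livers (SD, n = 8), and 72.8 ± 3.56 CPM in DN:HOM (SD, n = 7) against 91.8 ± 5.04 CPM in DN:WT livers (SD, n = 7). The summed CPM of 7 hepatocyte markers was between 33020 and 102330 in every group of livers, and all livers carried transcripts of 4 Y-linked genes with at most 0.481 CPM of Xist. The libraries labelled DN:WT animal 10 and DN:HOM animal 12 stood apart from their groups. Their summed CPM of 6 resident Kupffer cell markers was 3.8 and 159.9, where the other DN:WT livers had 138.5 to 266.02 and the other DN:HOM livers 1.89 to 4.14. Each thus lay within the range of the opposite homozygous genotype of its study. Whether their labels were exchanged was not tested, and if they were, the values over 48 livers mix the genotypes. For 6 of 7 genes in the study's source data for a plot of FXR targets, every value matched another DN liver. These 2 libraries were not themselves compared with that plot. Values are therefore given over the other 46 livers, and then over all 48.

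Hamp did not pass the threshold of adjusted p under 0.05 against wild type in any genotype of either study. Hamp2, in contrast, was nearly lost in homozygous knock-in livers. Hamp2 was 16.2-fold lower in DN:HOM than in DN:WT livers (4.47-fold over all 48 livers). The lowest DN:WT liver of the 46 lay above the highest DN:HOM liver, and 33.5% of all genes had these groups apart. The BMP ligand Bmp6 and the BMP target Id1 were higher in DN:HOM livers, by 1.85-fold and 2.64-fold (1.53-fold and 2.08-fold over 48). Tfr2 was 1.43-fold lower and Trf rose by 1.26-fold (1.32-fold and 1.17-fold over 48). In all, 5 of the 10 genes passed the threshold, near the 59.1% of all genes called in DN:HOM against DN:WT livers. In KO:HOM against KO:WT livers, where 19.4% of all genes were past the threshold, Fth1 was the only one of the 10 genes that passed. It was 1.22-fold higher in KO:HOM livers, a call that was lost without KO:HOM animal 22 (adjusted p = 0.05036 by edgeR).

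Hamp (ENSMUSG00000050440) and Hamp2 (ENSMUSG00000056978) are neighbours on the minus strand of chromosome 7 of GRCm39, from 30641766 to 30643990 and from 30621797 to 30624106. Their coding sequences share 93.6% of their bases, with one identical run of 80 bases. Reads that matched both genes equally well were not counted for either, so each count rests on reads that cover a difference, and the division of reads between them is uncertain. The promoters were compared because the paralogs parted in the knock-in livers. The 150 bases before each RefSeq start site are given here with the hexamers GGCGCC and GGCACC in capitals, Hamp at chr7:30643455-30643604 and Hamp2 at chr7:30623607-30623756 (GRCm39, minus strand, read 5′ to 3′). GGCGCC is the core of the element through which SMAD proteins drive the human hepcidin promoter.
Hamp: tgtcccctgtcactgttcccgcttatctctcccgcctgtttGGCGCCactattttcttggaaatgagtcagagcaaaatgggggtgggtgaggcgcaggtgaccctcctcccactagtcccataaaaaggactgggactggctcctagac
Hamp2: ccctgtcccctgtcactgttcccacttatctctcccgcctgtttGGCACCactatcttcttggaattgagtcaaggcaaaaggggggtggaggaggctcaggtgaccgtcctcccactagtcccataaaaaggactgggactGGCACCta

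These stretches were identical at 135 of 153 aligned positions (88.2%). The Hamp stretch held GGCGCC once, at -109 from the start site, and no GGCACC. The Hamp2 stretch held GGCACC at -106 and at -8, and no GGCGCC. Both held the STAT motif TTCNNNGAA, at -97 in Hamp and at -94 in Hamp2. Among 32851 RefSeq promoters of GRCm38.p6, each 300 bases long and searched on both strands, 11.9% held GGCGCC, 15.5% held GGCACC and 8.3% held TTCNNNGAA. The E-box CACGTG is in 7.15% of them and in neither hepcidin promoter. A match describes the letters alone and does not show binding.

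The CPM of Hamp ran from 94.8 to 299.3 in DN:WT livers (median 157.3), from 42.0 to 334 in DN:HET livers (median 120.8) and from 83.4 to 231.1 in DN:HOM livers (median 157.8). In the knockout study it ran from 224.5 to 584.7 in KO:WT livers (median 406.1), from 289.1 to 723.7 in KO:HET livers (median 455.01) and from 275.2 to 740.3 in KO:HOM livers (median 479.7). The genotypes overlapped over most of their ranges within each study. Below the lowest DN:WT liver lay DN:HET animals 8, 16 and 20 (42.0, 59.2 and 55.7 CPM) and DN:HOM animal 9 (83.4 CPM). The log2 fold change of Hamp was -0.23 (standard error, SE, 0.32, adjusted p = 0.55) in DN:HOM against DN:WT livers and 0.21 (SE 0.29, adjusted p = 0.66) in KO:HOM against KO:WT livers. The 95% intervals, -0.85 to 0.39 and -0.36 to 0.79, leave room for a change of either sign. Ordered by mean CPM, the groups ran DN:HET (142.5), DN:HOM (159.4), DN:WT (188.8), KO:WT (403.02), KO:HOM (469.8) and KO:HET (485.1), and of the 5 steps between neighbours in that order only the one from DN:WT to KO:WT was past the threshold of adjusted p under 0.05.

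Hamp2 had a different distribution. Its CPM was 3.25 to 36.9 in DN:WT livers (median 15.1), 2.88 to 38.2 in DN:HET livers (median 5.2) and 0.541 to 1.54 in DN:HOM livers (median 0.9). The DN:HOM values rest on 11 to 32 reads per liver. In the knockout study the gene had 6.29 to 240.2 CPM in KO:WT livers (median 45.5), 20.3 to 90.1 CPM in KO:HET livers (median 33.1) and 3.95 to 97.1 CPM in KO:HOM livers (median 15.5). Every DN:HOM liver lay below every liver of the other 5 groups among the 46. Of all genes, 33.5% had DN:HOM fully apart from DN:WT livers and 22% from DN:HET livers. The share apart from all 5 groups was not counted. The gene also varied most of the 10 between livers of one group, with an SD of 41.7% to 120.7% of the group mean, where Tfr2 had 4.68% to 13.4%.

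**Figure D1:**
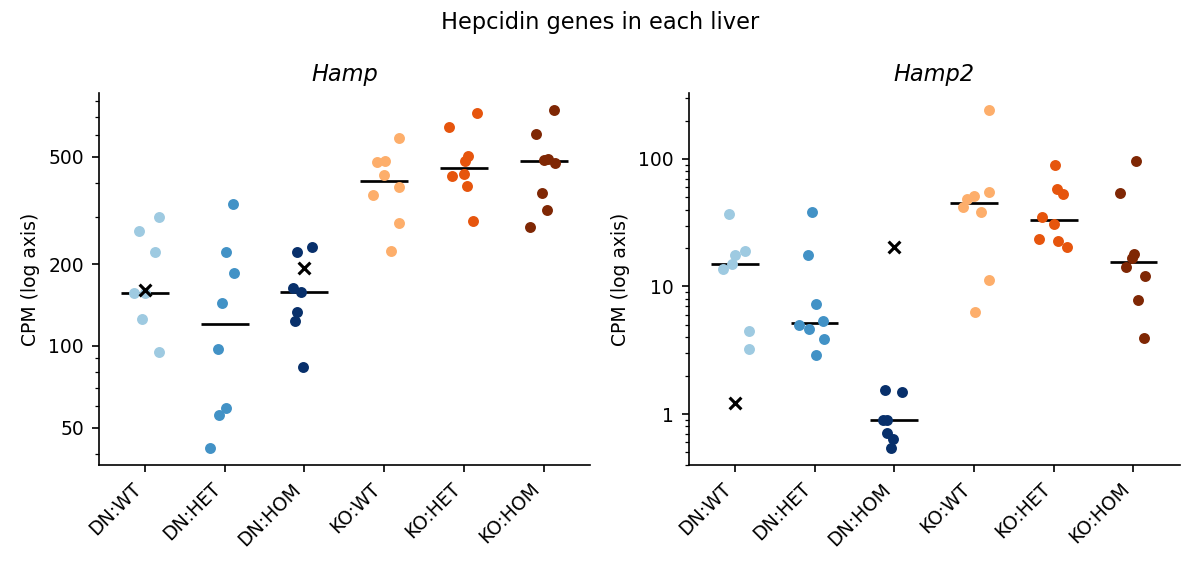
CPM of Hamp and Hamp2 (log axes) in each of 48 livers by group, where points are the 46 livers, horizontal lines their medians and crosses the libraries labelled DN:WT animal 10 and DN:HOM animal 12. The 7 DN:HOM points of Hamp2 lie between 0.541 and 1.54 CPM, below all other points, whereas those of Hamp lie within the range of DN:HET livers.

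In DN:HOM against DN:WT livers Hamp2 had a log2 fold change of -4.02 (SE 0.78, adjusted p = 2.3e-05), and in DN:HOM against DN:HET livers it was -3.45 (SE 0.78, adjusted p = 0.00022; -2.79 without DN:HET animal 1, adjusted p = 0.002). Over all 48 livers the first value was -2.16 (adjusted p = 0.018) and the second -1.77, which was not past the threshold (adjusted p = 0.052). The library labelled DN:HOM animal 12 had 20.4 CPM of Hamp2, within the DN:WT range, and the library labelled DN:WT animal 10 had 1.21 CPM, within the DN:HOM range. In KO:HOM against KO:WT livers the log2 fold change was -1.13 (SE 0.56, adjusted p = 0.15). That value turned on 2 livers: without KO:HOM animal 22, which had 97.1 CPM, it was -1.75 (adjusted p = 0.023), and without KO:WT animal 5, which had 240.2 CPM, it was -0.37 (adjusted p = 0.68). The homozygous effects of the studies differed by -2.89 (SE 0.96, adjusted p = 0.017), but by -1.03 over all 48 livers (adjusted p = 0.53) and by -2.29 without KO:HOM animal 22 (adjusted p = 0.05025), and by -3.65 without KO:WT animal 5 (adjusted p = 0.0012).

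The 2 paralogs were also summed, since their total is less sensitive to how reads were divided between them. The sum was 204.6 ± 79.1 CPM in DN:WT (SD, n = 7), 153.1 ± 100.6 CPM in DN:HET (SD, n = 8) and 160.4 ± 53.4 CPM in DN:HOM livers (SD, n = 7). It was 464.7 ± 172.2 CPM in KO:WT, 526.8 ± 129.7 CPM in KO:HET and 497.7 ± 133.7 CPM in KO:HOM livers (SD, n = 8 each). On the log2(CPM + 1) scale the mean of DN:HOM minus that of DN:WT livers was -0.32 (two-sided exact permutation test over 3432 splits, p = 0.29), and the same difference in the knockout study was 0.14 (exact permutation test over 12870 splits, p = 0.55). None of the 6 comparisons within a study passed the threshold after Benjamini-Hochberg adjustment, where the lowest adjusted p of the exact permutation tests was 0.64. Hamp made up most of the total in all groups, and its ratio to Hamp2 had a median of 11.5 in DN:WT, 10.2 in DN:HET and 182.4 in DN:HOM livers. In the knockout study the median ratio was 8.44 in KO:WT, 13 in KO:HET and 33.03 in KO:HOM livers.

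An antisense gene, Gm44662, overlaps both hepcidin genes on the plus strand. Its CPM was 5.78 ± 2.5 in DN:WT and 2.62 ± 0.811 in DN:HOM livers (SD, n = 7 each), with a log2 fold change of -1.13 (adjusted p = 0.014), and of -0.75 over all 48 livers, which was not past the threshold (adjusted p = 0.11). The libraries were stranded, and the strand used here held 6.97 to 8.62 times the reads of the other. With unstranded counts, which add the antisense reads, the log2 fold change of Hamp2 in DN:HOM against DN:WT livers was -3.38 (adjusted p = 0.00032). The Hamp2 difference between the studies lost its call with those counts.

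The BMP ligand and target moved in the same direction in homozygous knock-in livers. Bmp6 (ENSMUSG00000039004), on chromosome 13 from 38529065 to 38684280, had 1.11 to 3.4 CPM in DN:WT livers (median 2.07), 1.25 to 2.32 CPM in DN:HET livers (median 1.62) and 2.9 to 5.62 CPM in DN:HOM livers (median 4.12). The DN:HOM livers lay above every DN:HET liver, where 22% of all genes had these groups apart. They overlapped only the upper end of the DN:WT range. In the knockout study Bmp6 had medians of 2.7 CPM in KO:WT, 2.89 CPM in KO:HET and 2.28 CPM in KO:HOM livers, and the genotypes overlapped. The gene overlaps Txndc5 and 4930579J19Rik on the other strand. With 15 to 114 reads per liver its values carry counting error as well as the spread between animals.

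Bmp6 rose in DN:HOM against DN:WT livers, with a log2 fold change of 0.88 (SE 0.21, adjusted p = 0.00034) and of 0.61 over all 48 livers (adjusted p = 0.02). In KO:HOM against KO:WT livers it was -0.27 (SE 0.20, adjusted p = 0.39). The difference between the studies was 1.15 (SE 0.29, adjusted p = 0.0017) over 46 livers and 0.86 (adjusted p = 0.064) over 48.

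Id1 (ENSMUSG00000042745), an inhibitor of DNA binding by helix-loop-helix factors, lies on chromosome 2 from 152566218 to 152579544. It had 2.71 to 10.1 CPM in DN:WT livers (median 3.41), 2.57 to 5.62 CPM in DN:HET livers (median 3.61) and 8.83 to 13.7 CPM in DN:HOM livers (median 10.3). A single DN:WT liver, animal 17 with 10.1 CPM, reached the DN:HOM range. In the knockout study the medians were 6.23 CPM in KO:WT, 5.84 CPM in KO:HET and 5.95 CPM in KO:HOM livers, with ranges that overlapped almost wholly. Id1 rose in DN:HOM against DN:WT livers, by 1.40 on the log2 scale (SE 0.26, adjusted p = 1.1e-05) and by 1.06 over all 48 livers (adjusted p = 0.0014), and the value was -0.03 (SE 0.24, adjusted p = 0.95) in KO:HOM against KO:WT livers. The effects differed by 1.43 between the studies (SE 0.35, adjusted p = 0.0013), and by 1.09 over all 48 livers (adjusted p = 0.053).

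**Figure D2:**
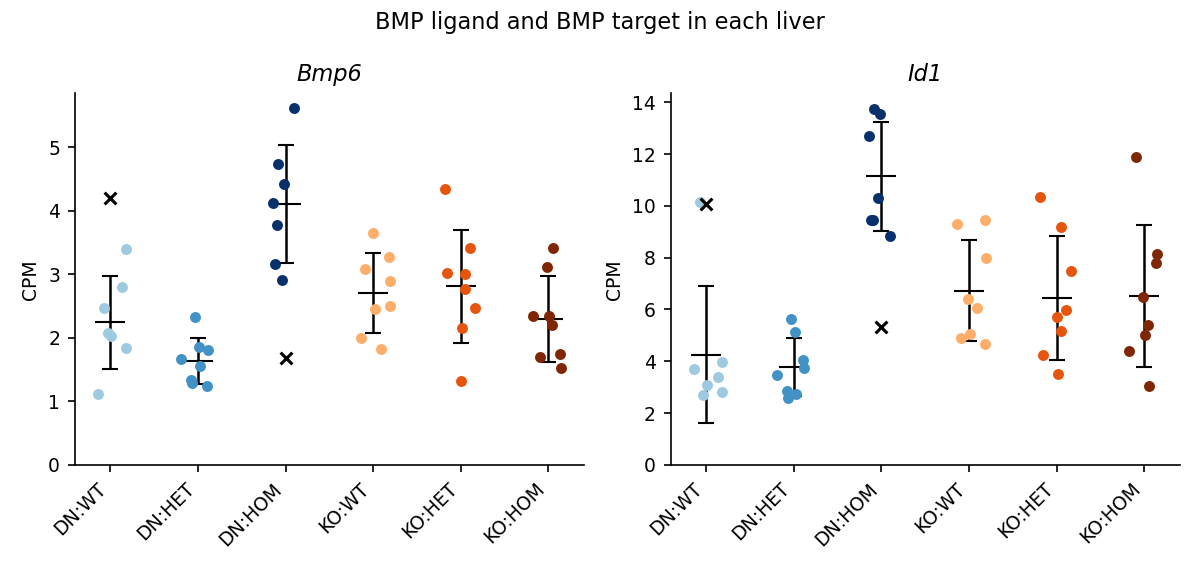
CPM of Bmp6 and Id1 in each of 48 livers by group, where points are the 46 livers, bars their mean and SD and crosses the libraries labelled DN:WT animal 10 and DN:HOM animal 12. DN:HOM livers have 2.9 to 5.62 CPM of Bmp6 and 8.83 to 13.7 CPM of Id1, above all DN:HET livers, and the 3 knockout study groups overlap one another.

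Transferrin receptor 2 was lower and transferrin higher in homozygous knock-in livers. Tfr2 (ENSMUSG00000029716), on chromosome 5 from 137568087 to 137586343, had 319.2 to 428.7 CPM in DN:WT livers (median 365.9), 303.8 to 374.9 CPM in DN:HET livers (median 341.4) and 231.8 to 264.6 CPM in DN:HOM livers (median 245.8). Among the 46, no DN:HOM liver reached the lowest liver of the other 5 groups. For comparison, DN:HOM lay fully apart from DN:WT livers for 33.5% of all genes and from DN:HET livers for 22%. The share apart from all 5 groups was not counted. The library labelled DN:WT animal 10, with 240 CPM, lay within the DN:HOM range. The knockout study had medians of 433.9 CPM in KO:WT, 406.5 CPM in KO:HET and 398.3 CPM in KO:HOM livers. Tfr2 had a log2 fold change of -0.51 (SE 0.08, adjusted p = 7e-07) in DN:HOM against DN:WT livers, -0.40 over all 48 livers (adjusted p = 0.00045), and -0.10 (SE 0.08, adjusted p = 0.4) in KO:HOM against KO:WT livers. The difference between the studies was -0.42 (SE 0.11, adjusted p = 0.003), and -0.31 over all 48 livers (adjusted p = 0.1005).

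Trf (ENSMUSG00000032554), the gene of plasma transferrin, lies on chromosome 9 from 103081200 to 103107814. It had 8998 to 11842 CPM in DN:WT livers (median 10994), 10071 to 13414 CPM in DN:HET livers (median 10991) and 12328 to 14704 CPM in DN:HOM livers (median 12818). The lowest DN:HOM liver lay above the highest DN:WT liver, where 33.5% of all genes had these groups apart. The DN:HET range reached into that of DN:HOM livers. The medians of the knockout study were 12855 CPM in KO:WT, 10984 CPM in KO:HET and 11493 CPM in KO:HOM livers. In DN:HOM against DN:WT livers Trf rose by 0.34 on the log2 scale (SE 0.08, adjusted p = 0.00051), and by 0.23 over all 48 livers (adjusted p = 0.04), where the library labelled DN:WT animal 10 had 15729 CPM. It was -0.05 (SE 0.08, adjusted p = 0.71) in KO:HOM against KO:WT livers, and the studies differed by 0.39 (SE 0.11, adjusted p = 0.0063), or by 0.27 over all 48 livers (adjusted p = 0.17).

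Among the 10 genes, 4 have mRNAs with iron-responsive elements. Against wild type only Fth1 of these 4 passed the threshold, in KO:HOM livers, where 19.4% of all genes were called. In DN:HOM livers, where 59.1% of all genes were called, none of the 4 passed. These elements are hairpins bound by iron regulatory proteins when iron is scarce: in the 5′ untranslated region they block translation of ferritin and ferroportin, and in the 3′ untranslated region they protect the Tfrc mRNA from decay. The 27-base elements are printed because RNA counts read the 2 kinds differently, protein output being controlled in the first and mRNA level in the second. Each is from GRCm39, read 5′ to 3′ on the strand of its gene, with the loop in capitals. They were found by a pattern in which the bases next to the loop all pair, so an imperfect hairpin would be missed. They lie at chr19:9960097-9960123 (Fth1, plus strand), chr7:45109204-45109230 (Ftl1, minus strand), chr1:45964626-45964652 (Slc40a1, minus strand) and, for the 4 matches found in Tfrc on the plus strand, chr16:32450038-32450064, chr16:32450417-32450443, chr16:32450482-32450508 and chr16:32450529-32450555.
Fth1, 5′ region: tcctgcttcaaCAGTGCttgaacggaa
Ftl1, 5′ region: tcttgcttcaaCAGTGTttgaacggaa
Slc40a1, 5′ region: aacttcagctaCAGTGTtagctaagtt
Tfrc, 3′ region: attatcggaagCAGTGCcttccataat
Tfrc, 3′ region: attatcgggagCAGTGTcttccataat
Tfrc, 3′ region: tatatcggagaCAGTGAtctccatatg
Tfrc, 3′ region: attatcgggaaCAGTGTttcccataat

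Tfrc (ENSMUSG00000022797), the receptor that takes up transferrin iron, lies on chromosome 16 from 32427556 to 32451612. It had 17.8 to 48.2 CPM in DN:WT livers (median 34.9), 33.2 to 54.2 CPM in DN:HET livers (median 41) and 26.5 to 40.7 CPM in DN:HOM livers (median 28.8). In the knockout study it had medians of 29.7 CPM in KO:WT, 27.9 CPM in KO:HET and 34.9 CPM in KO:HOM livers. All neighbouring groups overlapped. Between DN:HOM and DN:WT livers the difference was -0.21 on the log2 scale (SE 0.19, adjusted p = 0.34), and between KO:HOM and KO:WT livers it was -0.02 (SE 0.18, adjusted p = 0.95). DN:HOM minus DN:HET was -0.49 (SE 0.18, adjusted p = 0.021), a call that was lost over all 48 livers (-0.40, adjusted p = 0.062).

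Fth1 (ENSMUSG00000024661, chromosome 19 from 9957911 to 9962462) encodes the heavy ferritin chain, which oxidises iron for storage, and Ftl1 (ENSMUSG00000050708, chromosome 7 from 45107367 to 45109308) the light chain. Fth1 had 1048 to 1675 CPM in DN:WT, 1131 to 1697 CPM in DN:HET and 1285 to 1567 CPM in DN:HOM livers, with medians of 1324, 1439 and 1397 CPM. In KO:WT livers it had 1052 to 1696 CPM (median 1273), in KO:HET livers 1124 to 1469 CPM (median 1350) and in KO:HOM livers 1324 to 1886 CPM (median 1562). The KO:HOM livers were shifted upwards but overlapped KO:WT livers. Its log2 fold change was 0.10 (SE 0.10, adjusted p = 0.41) in DN:HOM and 0.29 (SE 0.09, adjusted p = 0.019) in KO:HOM livers, the latter 0.25 (adjusted p = 0.05036) without KO:HOM animal 22, and the 2 effects did not differ past the threshold (-0.19, adjusted p = 0.27). Ftl1 had group medians between 1606 and 1730 CPM in all 6 groups, with log2 fold changes of -0.02 (SE 0.11, adjusted p = 0.9) in DN:HOM and 0.08 (SE 0.11, adjusted p = 0.67) in KO:HOM livers. It overlaps Gm56125 on its own strand, so its count is uncertain there.

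Slc40a1 (ENSMUSG00000025993), on chromosome 1 from 45947211 to 45965683, had 91.2 to 127.4 CPM in DN:WT, 84.9 to 154.2 CPM in DN:HET and 81.01 to 133.8 CPM in DN:HOM livers, with medians of 109, 132.1 and 100.8 CPM. The medians of the knockout study were 111.1 CPM in KO:WT, 124.6 CPM in KO:HET and 138.9 CPM in KO:HOM livers. Its log2 fold change was -0.05 (95% interval -0.34 to 0.23, adjusted p = 0.77) in DN:HOM and 0.22 (95% interval -0.04 to 0.49, adjusted p = 0.26) in KO:HOM livers. Neither study separated its genotypes for the exporter on which hepcidin acts.

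**Figure D3:**
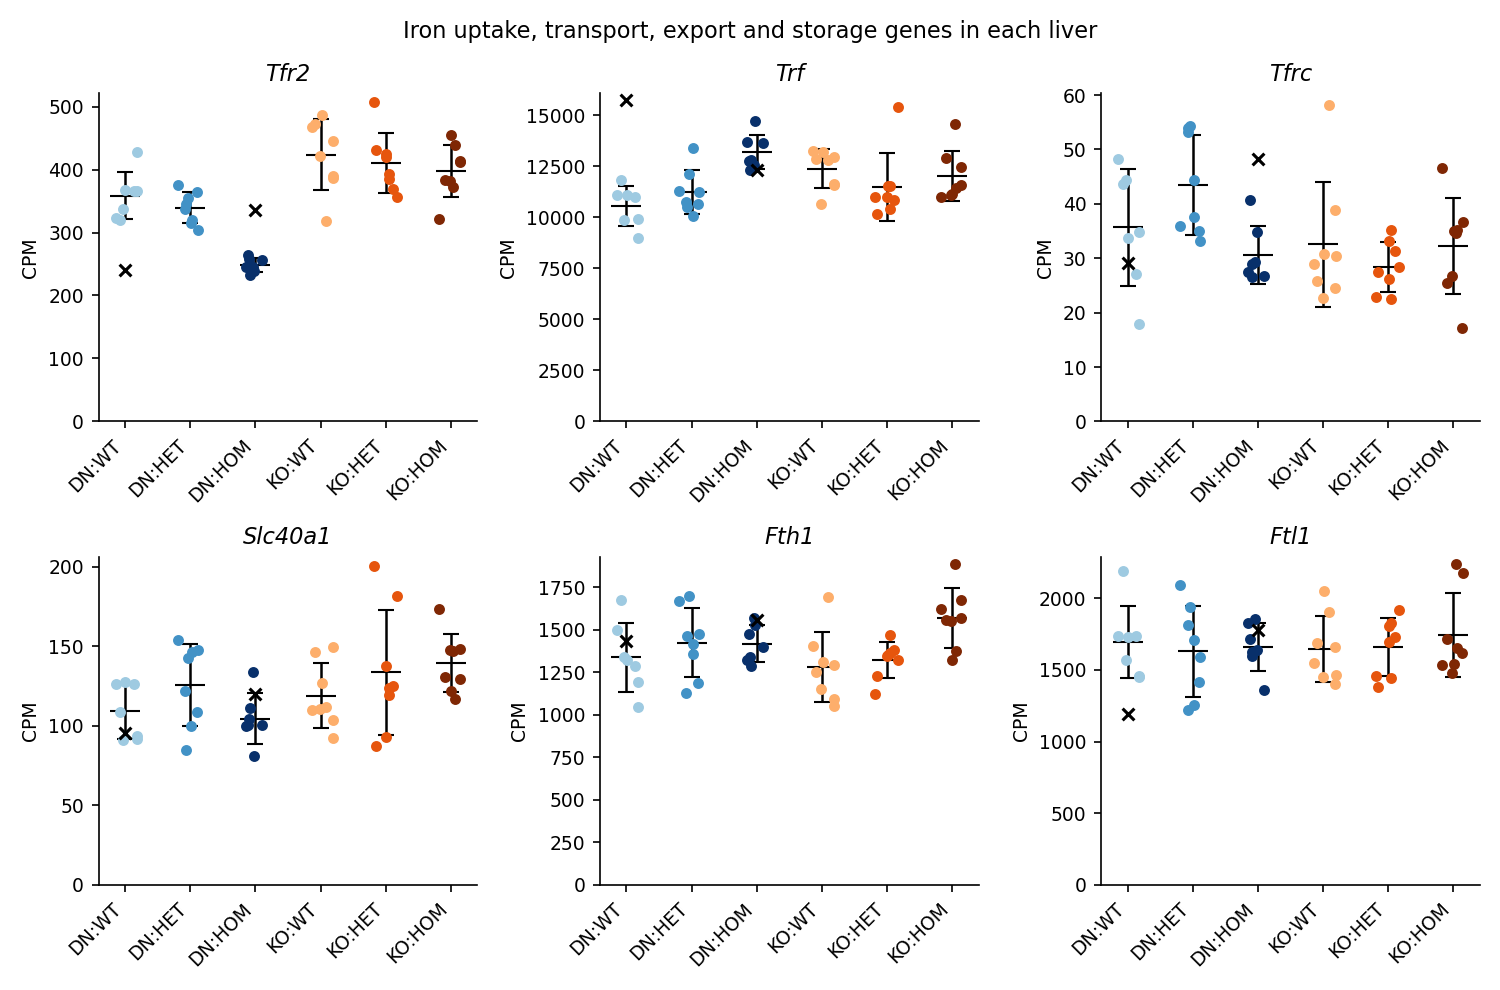
CPM of Tfr2, Trf, Tfrc, Slc40a1, Fth1 and Ftl1 in each of 48 livers by group, where points are the 46 livers, bars their mean and SD and crosses the libraries labelled DN:WT animal 10 and DN:HOM animal 12. Tfr2 in DN:HOM livers (231.8 to 264.6 CPM) lies below all other points of the 46, Trf in DN:HOM livers (12328 to 14704 CPM) lies above DN:WT, and Ftl1 is level across groups.

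Levels were compared between genes only per kilobase of exon, which is a rough scale. Exon length was the union over all annotated transcripts of a gene, 3520 bases for Fth1 and 1341 for Ftl1. It can exceed the length of the main transcript, so the order of genes depends on the annotation. Reads shared by Hamp and Hamp2 are missing from both. On this scale the group means of Trf were 1852 to 2322 CPM per kb and those of Ftl1 1215 to 1300.1, followed by Fth1 at 364.1 to 445.8 and Hamp at 160.1 to 545. Tfr2 had 50.2 to 85.6 CPM per kb, above Tfrc at 4.02 to 6.14. Slc40a1 had 11.1 to 14.8 CPM per kb. Id1 had 2.13 to 6.28 and Bmp6 0.418 to 1.05 CPM per kb, and Hamp2 had the largest ratio of highest to lowest group mean, from 1.57 in DN:HOM to 101.02 CPM per kb in KO:WT livers.

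Read across all 10 genes, 5 passed the threshold in DN:HOM against DN:WT livers, where 59.1% of the 15711 genes tested were called. Of the 10 genes 3 were higher and 2 lower, beside 29.1% and 30% of all genes. A share of 5 in 10 is near that background. Livers of both genotypes lay fully apart for Hamp2, Tfr2 and Trf, 3 of the 10, and for 33.5% of all genes. The median log2 fold change of the 10 genes was -0.04 and that of all genes -0.01. Over all 48 livers the same number, 5, passed, against a background of 48%, and the genotypes lay apart for none of the 10 and for 0.115% of all genes. In KO:HOM against KO:WT livers 1 of 10 passed, against 19.4% of all genes (over all 48 livers 1 again, against 12.9%), and the medians were -0.03 for the 10 genes and -0.02 for all. No member had its KO:HOM and KO:WT livers fully apart, as 2.55% of all genes did.

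Scaling by library size alone, without TMM factors, moved the median of all genes in DN:HOM against DN:WT livers to 0.42, and the share of called genes that were higher from 49.3% to 84.2%, so every member shifted upwards with it. On that scale Tfr2 was at -0.09 (adjusted p = 0.32) and below the median, and Hamp2 remained at -3.59. The signs of Hamp (0.19), Tfrc (0.23), Slc40a1 (0.38) and Ftl1 (0.42) turned with the shift, of which Slc40a1 and Ftl1 passed the threshold, as did Fth1 (0.53). Hamp, Tfrc, Slc40a1 and Ftl1 lay at or below the shifted median. Hamp2, Bmp6, Id1 and Trf kept their direction and their call.

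Heterozygous livers showed 0 of 10 genes past the threshold in either study by edgeR and by DESeq2. In DN:HET against DN:WT livers 2.30% of all genes were called (0.250% over all 48 livers), and 1 member, Bmp6, had an unadjusted p under 0.05, with a log2 fold change of -0.45 (adjusted p = 0.34). In KO:HET against KO:WT livers 0.0191% of all genes were called (0.0192% over all 48 livers) and no member had an unadjusted p under 0.05. Against heterozygous livers of its own study, DN:HOM had 6 members past the threshold, beside 53.9% of all genes: Bmp6, Id1 and Trf were higher (26.1% of all genes) and Hamp2, Tfr2 and Tfrc lower (27.8%). The livers lay fully apart for 4 of them, Hamp2, Tfr2, Bmp6 and Id1, and for 22% of all genes. Over all 48 livers 4 passed, beside 46.4% of all genes, and none had its livers fully apart, beside 1.18%. Bmp6 was 2.52-fold and Id1 2.98-fold higher than in DN:HET livers. KO:HOM against KO:HET livers had 0 members past the threshold by edgeR (10.6% of all genes, and 4.72% over all 48 livers), 1 with an unadjusted p under 0.05 and 1 by DESeq2, both Fth1, at 0.25 (adjusted p = 0.07 by edgeR). These comparisons share the homozygous livers with those against wild type.

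The homozygous effect differed between the studies for 5 members, Hamp2, Tfr2, Trf, Bmp6 and Id1, beside 34.7% of all genes. With all 48 livers 0 members passed by edgeR, beside 10.5% of all genes, and 4 had an unadjusted p under 0.05. These 5 differences therefore rest on leaving out the libraries labelled DN:WT animal 10 and DN:HOM animal 12.

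**Figure D4:**
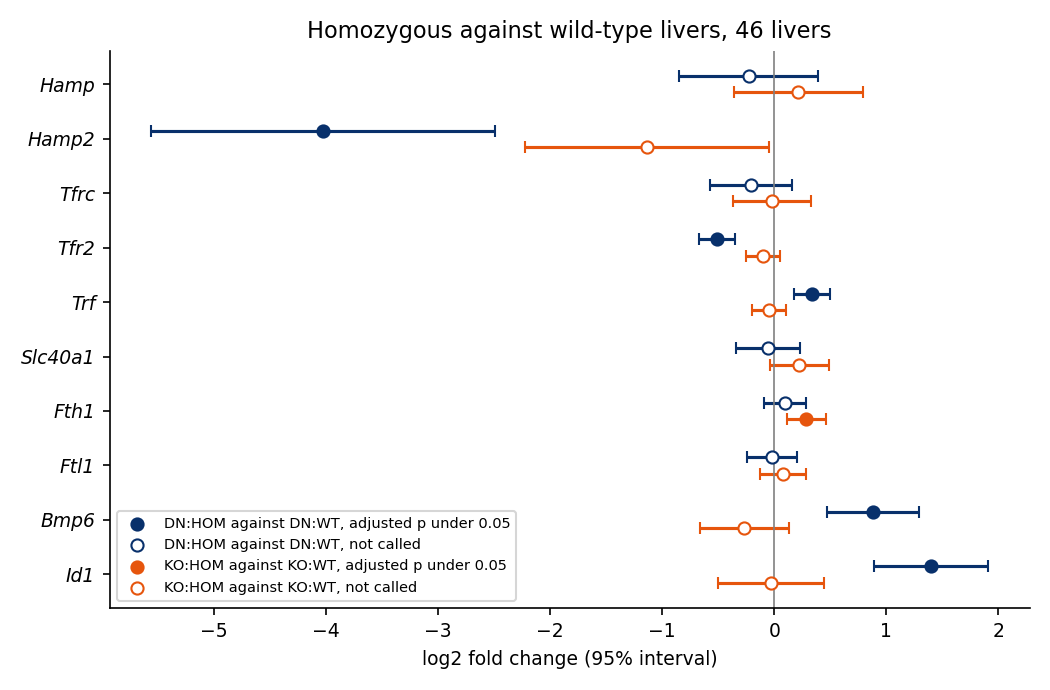
Log2 fold changes of the 10 genes in homozygous against wild-type livers of each study, over 46 livers, with 95% intervals from the standard errors, where filled points have an adjusted p under 0.05. Hamp2 stands at -4.02 in the knock-in study, the 4 other filled knock-in points lie between -0.51 and 1.40, and Fth1 at 0.29 is the filled point of the knockout study.

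The wild-type livers of the 2 studies were also compared. This comparison was chosen with the hepcidin levels of both studies known, so its values for Hamp and Hamp2 are a description and not independent evidence. Hamp was 2.15-fold higher in KO:WT than in DN:WT livers (log2 fold change 1.10, standard error 0.31, adjusted p = 0.014), and Hamp2 3.93-fold higher (1.98, standard error 0.60, adjusted p = 0.025). Tfr2 (0.25, adjusted p = 0.03) and Trf (0.24, adjusted p = 0.043) were also higher, so 4 of 10 members passed beside 12% of all genes. With all 48 livers Hamp (1.12), Hamp2 (2.15) and Tfr2 (0.30) passed and Trf did not (0.15, adjusted p = 0.31), beside 12.7% of all genes. Hamp2 lost its call without KO:WT animal 5, which had 240.2 CPM (1.21, adjusted p = 0.17), and without DN:WT animal 5 or 13. Tfr2 lost its call when any of 8 livers was left out and Trf when any of 21 was (adjusted p up to 0.082 and 0.14), and the number of members past the threshold was 1 to 4 over the 46 omissions, lowest without DN:WT animal 13. Of the 4, only Hamp kept its call whichever of the 46 livers was left out. Id1 gained one without DN:WT animal 17 (1.03, adjusted p = 0.0026).

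The other genes of iron handling were described by 11 lists of 87 genes, of which 84 could be tested. In DN:HOM against DN:WT livers 31 rose and 28 fell, together 70.2% of those tested where 59.1% of all genes were called, and over all 48 livers 51 passed, where 48% of all genes were. In KO:HOM against KO:WT livers 17 rose and 6 fell (27.4%, beside 19.4% of all genes), and over all 48 livers 14 passed, beside 12.9%. Their homozygous effects differed between the studies for 35 of 84 genes (41.7%, beside 34.7% of all genes), and for 7 of 84 over all 48 livers, beside 10.5%. The shares of all genes in DN:HOM livers, 29.1% higher and 30% lower, and in KO:HOM livers, 19.4% called, are the background of each list that follows.

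In the BMP and SMAD branch of hepcidin control, 4 of 15 genes rose and 5 fell in DN:HOM livers, a share near the 59.1% of all genes called (median log2 fold change 0.08, and -0.01 over all genes), and over all 48 livers 3 rose and 4 fell. Hjv, which encodes the BMP co-receptor hemojuvelin, was at 137.5 ± 14.6 CPM in DN:WT and 76.2 ± 7.76 CPM in DN:HOM livers (SD, n = 7 each), with a log2 fold change of -0.84 (adjusted p = 1.2e-07). Tmprss6, whose protease cleaves hemojuvelin and lowers hepcidin, changed by -0.56 (adjusted p = 2.9e-08). Genes that rose include Bmp4 (0.79, adjusted p = 0.002) and Fgl1, a hepatokine that binds BMP ligands and lowers hepcidin (1.47, adjusted p = 0.00021). In KO:HOM livers 0 of 15 passed by edgeR or by DESeq2, and 2 had an unadjusted p under 0.05. Hjv and Tmprss6 differed between the studies, by -0.73 (adjusted p = 0.0006) and -0.43 (adjusted p = 0.0011), but not past the threshold over all 48 livers (-0.53, adjusted p = 0.077, and -0.30, adjusted p = 0.12), where 0 of 15 genes differed by edgeR and 3 had an unadjusted p under 0.05.

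Of 6 other BMP target genes, 2 rose in DN:HOM livers, a share near the 29.1% of all genes that rose. They were Id3 (0.88, adjusted p = 0.0039) and Smad7, an inhibitor of the pathway (0.56, adjusted p = 0.0016). The other 4, Id2, Id4, Smad6 and Atoh8, had log2 fold changes between 0.06 and 0.23. In KO:HOM livers 0 of 6 passed by edgeR, 2 had an unadjusted p under 0.05 and 1 passed by DESeq2. None of the 6 differed between the studies by edgeR or DESeq2, and 1 had an unadjusted p under 0.05.

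In the IL-6 and activin branch, 5 of 9 genes rose in DN:HOM livers, where 29.1% of all genes rose and 59.1% were called. In KO:HOM livers 4 of 9 rose, where 11.5% of all genes rose and 19.4% were called. Over all 48 livers 2 and 3 of the 9 rose. Socs3, a STAT3 target that restrains the pathway, rose in both (2.15, adjusted p = 3.2e-05 in DN:HOM and 1.18, adjusted p = 0.031 in KO:HOM; over all 48 livers 1.68, adjusted p = 0.0016, and 1.18, adjusted p = 0.062). Il1b, an inflammatory cytokine of macrophages, was at 1.81 (adjusted p = 0.001) and 1.49 (adjusted p = 0.016), and over all 48 livers at 1.07 (adjusted p = 0.063) in DN:HOM. Stat3 itself was at 0.34 and 0.40. Il6 did not pass the filter on low counts.

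Among 10 iron uptake genes, 7 rose and 2 fell in DN:HOM livers, beside 29.1% and 30% of all genes (median log2 fold change 1.5, and -0.01 over all genes), and over all 48 livers 7 rose and 1 fell. The metalloreductase gene Steap2 rose from 6.32 ± 1.21 CPM in DN:WT to 30.8 ± 3.3 CPM in DN:HOM livers (SD, n = 7 each), a log2 fold change of 2.30 (adjusted p = 4.7e-16). Lcn2, which encodes the siderophore-binding lipocalin 2, was at 4.76 (adjusted p = 1.8e-07), and Slc11a1, an iron transporter of phagocyte endosomes, at 2.04 (adjusted p = 3.8e-06). Ltf, the gene of lactoferrin, passed too (adjusted p = 1.3e-10), but its fold rests on almost no reads in wild-type livers: it stood at 0.0409 ± 0.0804 CPM in DN:WT and 2.85 ± 0.905 CPM in DN:HOM livers (SD, n = 7 each). In KO:HOM livers 4 of 10 rose and 1 fell (over all 48 livers 3 and 1), with Lcn2 at 2.44 and Slc11a1 at 1.92, while Steap2 was at 0.30 (adjusted p = 0.15).

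Both ferroxidase genes rose in DN:HOM livers, Cp (ceruloplasmin) by 0.77 (adjusted p = 2.5e-10) and Heph (hephaestin) by 1.57 (adjusted p = 1.1e-06), over 48 livers as over 46. In KO:HOM livers they were at 0.10 and -0.29, and 0 of 2 passed by edgeR or DESeq2 or at an unadjusted p under 0.05. Both iron regulatory protein genes fell, Aco1 from 264.8 ± 28.2 to 136.7 ± 13.2 CPM (SD, n = 7 each; log2 fold change -0.94, adjusted p = 1.8e-13) and Ireb2 by -0.62 (adjusted p = 2.1e-07), while Fbxl5, whose product degrades iron regulatory protein 2, rose (0.28, adjusted p = 0.0013). In KO:HOM livers Aco1 was at -0.23 (adjusted p = 0.023), a call not made over 48 livers. Of 3 tested genes of ferritin loading and turnover, Ncoa4, the cargo receptor for ferritin breakdown, fell in DN:HOM livers (-0.48, adjusted p = 0.00028), as did the iron chaperone gene Pcbp1 (-0.20, adjusted p = 0.0075), and Pcbp2 fell in KO:HOM livers (-0.17, adjusted p = 0.016).

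Among 11 genes of haem scavenging and breakdown, 7 rose and 3 fell in DN:HOM livers, beside 29.1% and 30% of all genes, and 6 rose and 2 fell in KO:HOM livers, beside 19.4% called (over all 48 livers 7 and 3, and 2 and 1). Cd163, the haemoglobin scavenger receptor of macrophages, fell from 9.49 ± 1.79 CPM to 0.0919 ± 0.131 CPM in the knock-in study (SD, n = 7 each; adjusted p = 3.8e-14) and by -2.12 in KO:HOM livers (adjusted p = 3.7e-05). The plasma haem and haemoglobin carriers rose, Hpx by 1.40 (adjusted p = 3.8e-09) and Hp by 1.40 (adjusted p = 5.3e-09), and Flvcr2, a transporter gene of the FLVCR family, was at 1.83. In haem synthesis 7 of 8 genes fell in DN:HOM livers, where 30% of all genes did, and 0 of 8 passed in KO:HOM livers, where 19.4% of all genes were called, by edgeR or DESeq2 or at an unadjusted p under 0.05. Cpox, encoding coproporphyrinogen oxidase, fell most, from 205.3 ± 21 to 80.7 ± 15.3 CPM (SD, n = 7 each; log2 fold change -1.34, adjusted p = 7.8e-13), and Fech, whose enzyme inserts iron into the ring, was at -0.52. The 1 gene that did not pass was Alas1, of the rate-limiting step, at -0.53 (adjusted p = 0.12). In the fit over all 48 livers 6 of the 8 fell.

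Marker genes of several cell types moved with these groups, beside 29.1% of all genes higher and 30% lower in DN:HOM livers. All 7 hepatocyte markers fell in DN:HOM livers, with a summed CPM of 33020 to 45167 against 67102 to 83022 in DN:WT livers, and 5 of 7 fell in KO:HOM livers (60171 to 83113, against 78894 to 102330 in KO:WT; 2 of 7 over all 48 livers). All 6 resident Kupffer cell markers fell in DN:HOM livers (1.89 to 4.14 against 138.5 to 266.02 CPM), and 8 of 9 general macrophage markers rose (1043 to 1662 against 104.9 to 178.6 CPM). All 3 tested neutrophil markers rose (20.98 to 65.4 against 1.04 to 2.94 CPM), as did all 4 cholangiocyte markers (46.999 to 62.7 against 6.54 to 10.2 CPM) and 6 of 7 stellate cell markers (446.4 to 624.9 against 183.8 to 225.9 CPM). Of 10 markers of liver endothelium, the main source of Bmp6, 3 rose and 5 fell, and their sum was 180.2 to 277.3 CPM in DN:HOM and 167.7 to 238.3 CPM in DN:WT livers. Of 7 tested erythroid markers 3 fell. Of 4 T cell markers 2 rose in DN:HOM and 4 in KO:HOM livers, and of 3 B cell markers 1 fell in DN:HOM livers. In the knockout study the summed CPM of resident Kupffer cell markers was 23.6 to 68.8 in KO:HOM and 77.6 to 317.1 in KO:WT livers. Macrophage markers had 277.3 to 1063.9 and 79.6 to 213.1 CPM in those groups. Stellate cell markers had 256.95 to 436.2 and 173.9 to 331.7 CPM, and neutrophil markers 0.882 to 7.83 and 0 to 3.16 CPM. In bulk liver RNA, fewer cells of a type and less RNA per cell cannot be told apart. The part of cell composition in the fall of Tfr2, Hamp2, Hjv and Tmprss6, which are hepatocyte transcripts, was not tested. Its part in the fall of Cd163 and in the rise of Lcn2, Ltf and Slc11a1 was not tested either.

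Whether hepcidin followed the other genes from animal to animal within a genotype was asked by correlating log2 CPM after removal of the group means, over 46 livers. Of the other 9 genes, only Tfrc passed after adjustment over the 9: livers with more Hamp had less Tfrc (Pearson r = -0.51, permutation p = 0.00033, adjusted p = 0.003; Spearman rho = -0.54, permutation p = 0.00049, adjusted p = 0.0044). Without the 2 livers farthest from the median of Hamp r was -0.59, and over all 48 livers it was -0.46 (permutation test, adjusted p = 0.0075). Within the knock-in study alone r was -0.43 (permutation p = 0.047, adjusted p = 0.42, n = 22), and within the knockout study -0.68 (permutation p = 0.00043, adjusted p = 0.0039, n = 24), where the adjusted p of rho was 0.077. Fth1 (r = -0.34, adjusted p = 0.18 by the permutation test) and Trf (r = 0.29, adjusted p = 0.18) did not pass. Of the genes of BMP signalling and transferrin sensing, Bmp6 gave r = -0.01, Id1 0.25 and Tfr2 0.20, and Hamp2 gave -0.10, with adjusted p between 0.2 and 0.97 in the permutation tests.

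**Figure D5:**
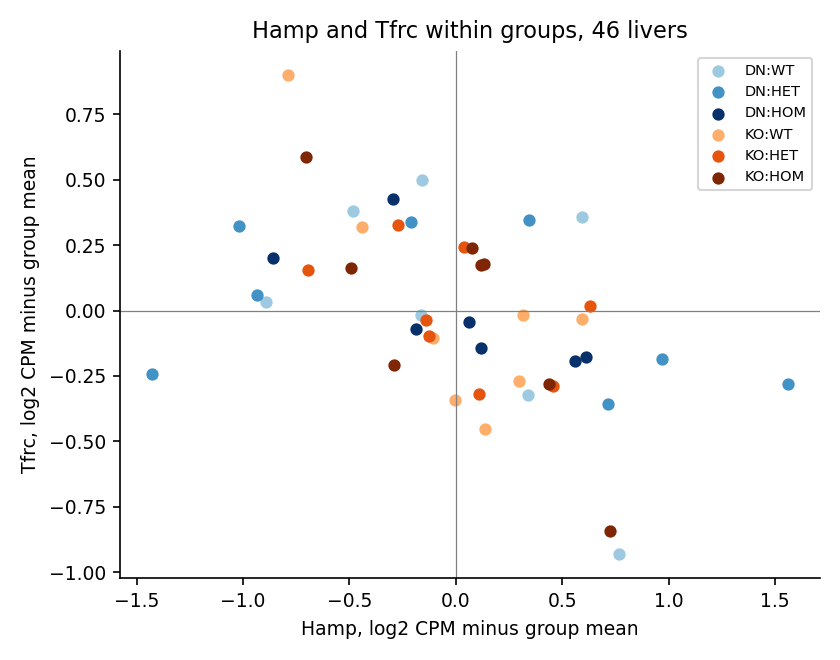
Log2 CPM of Hamp (x axis) and Tfrc (y axis) minus the mean of the group, 1 point for each of 46 livers, coloured by group. Points run from the upper left to the lower right, with Pearson r = -0.51.

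Among 11715 genes with a mean log2 CPM above 1, those whose values within groups were most like Hamp over 46 livers were Lifr, the receptor of leukaemia inhibitory factor (r = 0.62), the neighbouring ribonuclease genes Ang (r = 0.61) and Rnase4 (r = 0.61) on chromosome 14, Serpina10 (r = 0.6) and Ogfrl1 (r = 0.59). For all 48 livers these values were 0.60, 0.52, 0.49, 0.42 and 0.55. They were picked as the highest of many and are given as a description. The CPM of both studies share one TMM scaling over 48 livers. Of the 9 other members, Trf ranked highest at place 742 and Tfrc lowest at place 11685.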

How the data were processed

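Liver polyA RNA of 48 mice was sequenced in stranded libraries. The authors aligned reads to GRCm39 with STAR 2.5.0a, per the submitters' processing notes, and deposited 1 table of read counts per gene and liver. These raw counts cover uniquely mapped reads only. Column 4 of each table was used, since it held 6.97 to 8.62 times the reads of the other strand. Reads naming no gene (24.0% to 35.0%) were left out.

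The members and gene lists were chosen with earlier results of these data known. Genes passing filterByExpr of edgeR 4.0.16 (R 4.3.3; 15711 genes) were TMM scaled and fitted with 6 group means by the quasi-likelihood test, and p-values were adjusted by Benjamini-Hochberg over all genes tested, with a threshold of 0.05. This test gave every adjusted p of a fold change. CPM are TMM scaled with factors from all 48 livers. A fit over 46 livers, without the libraries labelled DN:WT animal 10 and DN:HOM animal 12, is given first. The source data of a plot in the study were matched to the other 22 DN livers, scaled over 46 livers. These 2 libraries were set aside before the match, so they were not compared with the plot. For 6 of its 7 genes, every value matched one of the 22 livers to within 0.000476%. The 10 genes were found by Ensembl identifier, all 10 passed the filter, and none was left out. From the lists, up to 4 genes per list and comparison with the largest absolute log2 fold changes among those past the threshold were named, with Nr1h3 as the targeted gene and the 5 genes most correlated with Hamp. Alas1, Saa1, the other BMP targets and Gm44662 were named after their values were seen. Correlations used log2 CPM (prior count 2) minus group means and 100000 permutations of livers within groups.

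Alternatives were DESeq2 1.42.0, upper-quartile scaling, library size alone, unstranded counts, no filter or one on a mean CPM of 1, a fit of either study by itself, omission of livers under 10000000 reads, return of either omitted library, another prior count and pseudocount, and leaving out each liver. The counts over all 48 livers of the gene lists were added after the data were seen. Sequences are from GRCm39 and RefSeq and were read by coordinates. The depth of 5332897 to 16961379 reads sets the counting error, largest for Bmp6, Hamp2 and Id1. The values of 1 gene of the mitochondrial iron list are not reported here.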

Additional observations from a re-analysis of the deposited data

Results flagged for a closer look

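Of 60 groups of livers examined (10 genes in 6 groups), 2 held a liver whose gap to the nearest other was large for the group's range by Dixon's 95% criterion, and chance gives about 1 in 20. Trf in KO:HET animal 9 was 15424 CPM, where the KO:HET median was 10984 CPM. Id1 in DN:WT animal 17 was 10.1 CPM, where the DN:WT median was 3.41 CPM, and without that liver Id1 was higher in KO:WT than in DN:WT livers by 1.03 on the log2 scale (adjusted p = 0.0026 by edgeR).

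The homozygous effect differed between the knock-in and knockout studies, by the interaction term over 46 livers, for 5 genes. The knock-in effect minus the knockout effect on the log2 scale was -2.89 for Hamp2, -0.42 for Tfr2, 0.39 for Trf, 1.15 for Bmp6 and 1.43 for Id1. None of the 5 differences passed over all 48 livers, where the adjusted p by edgeR ran from 0.053 to 0.53. Study, site and line cannot be told apart from the allele in these differences.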

How the results depend on the processing

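With each of the alternatives, Hamp2 stayed past the threshold in DN:HOM against DN:WT livers, at log2 fold changes of -4.22 to -2.16 (adjusted p from 1.4e-09 to 0.018). Under library size alone Slc40a1 and Ftl1 turned from -0.05 and -0.02 to 0.38 and 0.42 in that comparison, where the median of all genes was 0.42. The number of the 10 genes past the threshold in KO:HOM against KO:HET livers was 0, and 1 under DESeq2, upper-quartile scaling and library size alone, and 0 to 1 when each liver was left out (1 without KO:WT animal 23 or KO:HOM animal 30). In the difference between the studies it was 5, and 0 over all 48 livers. In KO:WT against DN:WT livers it was 4, and 2 under library size alone, 2 with no filter, 1 with DN:HOM animal 12 added back and 1 to 4 when each liver was left out. The Hamp2 difference between the studies was lost with unstranded counts (-2.35, adjusted p = 0.054). The cause was not tested.

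Over all genes, calls in DN:HET against DN:WT livers numbered 361, and 39 over all 48 livers, 617 by DESeq2, 239 with each study alone, 61 with animal 10 and 202 with animal 12 added back. Calls in KO:HOM against KO:WT livers fell from 3048 to 2016 over all 48 livers. In KO:HOM against KO:HET livers they numbered 1663, and 737 over all 48 and 1071 with animal 10 added back. In the difference between the studies they numbered 5456, and 1636 over all 48 and 3529 with animal 10 added back. In KO:HET against KO:WT livers they numbered 3, and 10 by DESeq2 and 8 with no filter. The share of calls that were higher in KO:HOM against KO:WT livers was 59.4%, and 85.7% under library size alone and 69.5% under upper-quartile scaling. Under library size alone that share moved from 48.3% to 83.7% in DN:HOM against DN:HET livers (median of all genes 0.35), from 68.4% to 88.8% in KO:HOM against KO:HET livers, from 47.4% to 81.6% in the difference between the studies (median 0.31) and from 53.8% to 37.9% in KO:WT against DN:WT livers. Of the values of single genes and correlations, 628 stayed on their side of the threshold, 31 lost their call, 5 gained one and 2 reversed, and 29 of the 628 changed sign without passing the threshold under either setting. No paired analysis was possible because animal numbers identify single mice and mark no shared litter, batch or day. Depth limits Bmp6, at 15 to 114 reads per liver, and Hamp2 in DN:HOM livers, at 11 to 32 reads.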

Other observations

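In DN:HOM livers 5 of 7 tested genes of mitochondrial iron use fell and none rose, over 46 as over 48 livers, where 30% of all genes fell over 46 livers and 59.1% (48% over 48) were called. Glrx5 and Iscu, which act in the assembly of iron-sulphur clusters, were at -0.63 and -0.45, and Slc25a37, encoding the mitochondrial iron importer mitoferrin 1, at -0.40 on the log2 scale. In KO:HOM livers Slc25a37 rose, at 0.47 (adjusted p = 0.0041 by edgeR). The erythroid markers, whose summed CPM was 379.9 to 446.8 in DN:WT and 99.5 to 464 in DN:HOM livers, include genes of red cell precursors, which also express Slc25a37, and their part in this value was not tested.

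Of 10 acute phase genes, 3 rose and 2 fell in DN:HOM livers and 2 rose in KO:HOM livers, shares near the 59.1% and 19.4% of all genes called, and over all 48 livers 3 rose and 1 fell, and 2 rose. Orm2, an acute phase glycoprotein of plasma, was at 2.98 in DN:HOM and 1.90 in KO:HOM livers, and Orm3 at -1.96 and 1.31. Saa1, a serum amyloid A gene, was at 1.06 (adjusted p = 0.14 by edgeR) and 1.12 (adjusted p = 0.17).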
